A study of Arabidopsis thaliana with 12 samples.

Results

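The data set out here are those of *linc1-1* seedlings against wild type (WT) seedlings that received no bacteria. These are 6 of the 12 RNA-seq libraries of the series, assigned to their groups by the labels, with 3 libraries of mock-treated *linc1-1* and 3 of mock-treated WT. The other 6 libraries, from the same lines 24 hours after spraying with *Pst hrcC-* at an OD600 of 0.002, serve here as a second measurement. *linc1-1* is the line SALK_025347, which carries a T-DNA insertion in *LINC1*, and WT is Col-0. All seedlings were 14 days old, grown at 23 °C in long days on MS medium without sugar, and whole seedlings were used for RNA. The labels call the mock libraries ctrl, and what these seedlings were given in place of bacteria is not given in the sources used here. The methods call the 3 libraries of each group biological replicates. A single insertion line was sequenced, so a difference between the lines cannot be told apart from any other difference that this line carries. Of 27371 genes in the files, 16620 reached a mean of 1 FPKM (a read level corrected for transcript length and library size) over the 6 mock libraries and were tested.

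LINC1, also called CRWN1, is a long coiled-coil protein of the plant nucleus that lies under the inner nuclear membrane and takes the place that lamins have in animals. Plants without it have smaller and rounder nuclei and a changed arrangement of heterochromatin. The protein is known from work on nuclear shape and, with its relatives, on defense, so the mock comparison asks which transcripts differ between the lines before any pathogen is present.

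*LINC1* (AT1G67230) was listed at 2.13, 2.09 and 2.17 FPKM in the *linc1-1* libraries 1, 2 and 3, against 23.9, 21.98 and 23.4 FPKM in the WT libraries. All 6 libraries thus held the *LINC1* level of their label, and the lowest WT value was 10.1 times the highest *linc1-1* value. The gene lies on the minus strand of chromosome 1 from 25151211 to 25156389 (TAIR10.1). The primers that the study lists for *linc1-1* are shown with their places in the gene, which do not by themselves give the place of the insertion. M0273 matched exon 3 of 8 at chr1:25155073-25155092, 1297 bases from the start of the gene, and M0274 matched exon 4 at chr1:25154862-25154881, 1508 bases from it, both in coding sequence. Both are written 5′ to 3′.
M0273: ggaagtggaagctcgggaaa
M0274: cattcacgcaagtcctccct
The *LINC1* values are FPKM over the whole gene, and the files do not split them into the parts before and after the insertion.

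The read depth of the libraries is unknown, since the files hold FPKM and no counts. The sum of FPKM was 2355029 to 7037666 in the *linc1-1* libraries and 2845822 to 7036739 in the WT libraries, of which a single gene, AT2G01021, took 45.7% to 81.1%. Over the tested genes, 1 library stood apart: WT replicate 1 had a Pearson's r of 0.836 and 0.849 with the other WT libraries, which had 0.937 with each other, on log2(FPKM + 1) across genes. On the first principal component of the mock libraries (40.3% of the variance) *linc1-1* replicate 3 lay at −42.9 and the other *linc1-1* libraries at 0.516 and 5.12, against −58.4 for WT replicate 1, 54.6 for WT replicate 2 and 41.1 for WT replicate 3. The second component (21.5%) had the *linc1-1* libraries at 18.7 to 35.0 and the WT libraries at −47.8 to −16.9, without overlap. The third component (19.1%) had replicate 3 of *linc1-1* at 39.2 and of WT at 38.1, and the other mock libraries at −31.0 to −10.3. Organelle genes took 7.24% and 9.17% of the FPKM sum in these replicate 3 libraries, against 0.79% to 4.02% in the other mock libraries. Photosynthesis transcripts, the markers of green tissue, summed to 55350 to 78260 FPKM in *linc1-1* and to 46030 to 89850 FPKM in WT, and root markers to 41.8 to 106.8 FPKM and 82.6 to 173.3 FPKM. Flower and seed markers summed to 0.345 to 0.578 FPKM in *linc1-1*, against 0.632 and 0.923 FPKM in WT replicates 1 and 3 and 26.1 FPKM in WT replicate 2. In whole seedlings, fewer cells of a type and less RNA per cell cannot be told apart. The values of the lines stand in separate tables, and whether they were scaled together is not given in the sources used here. Over the tested genes the log2 difference had a median of 0.0085, or 0.0025 with size factors.

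Without bacteria, few transcripts separated the lines beyond the spread of the libraries. A gene was called where limma gave a Benjamini-Hochberg adjusted p below 0.05 over all 16620 genes together with a fold change over 1.5 on the log2(FPKM + 1) scale. This held for 3 genes that were higher in *linc1-1* (0.0181%) and for 3 that were lower (0.0181%), *LINC1* being one of these. Before adjustment, 304 genes (1.83%) were higher and 474 (2.85%) were lower at a p below 0.05 with the same fold. The 3 *linc1-1* values lay above all 3 WT values in 1184 genes (7.12%) and below all of them in 1467 genes (8.83%). Signs were split nearly evenly, with 8494 positive and 8126 negative differences.

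**Figure D1:**
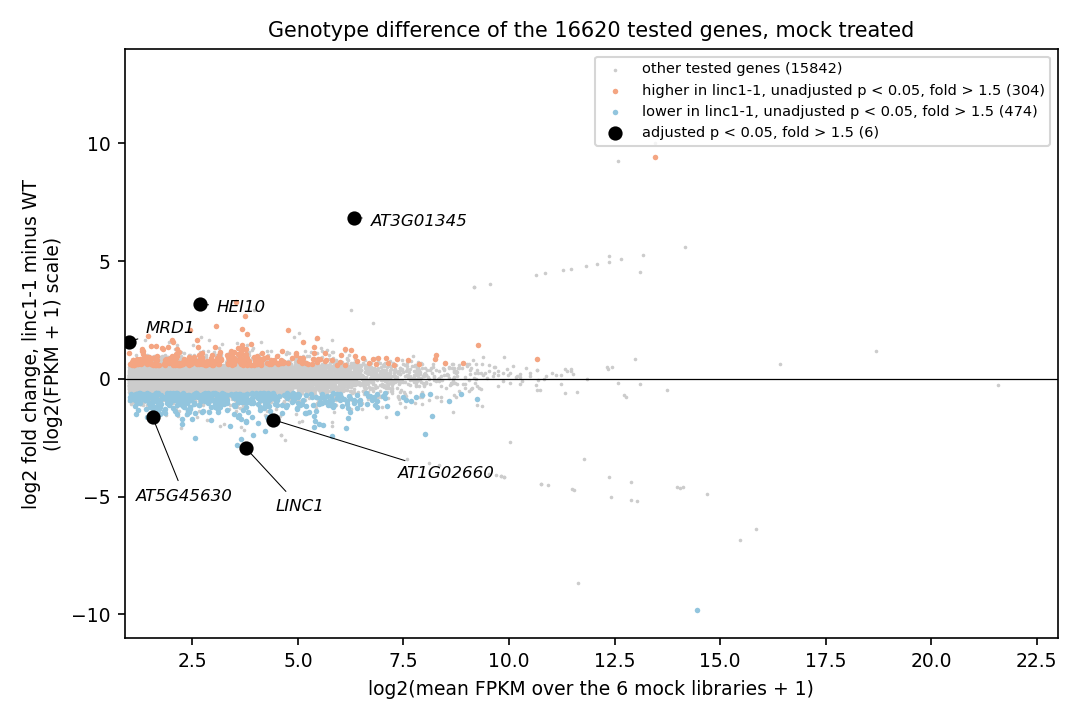
Each point is 1 of the 16620 tested genes, with log2 of its mean FPKM over the 6 mock libraries plus 1 on the x axis and the log2 fold change of *linc1-1* minus WT on the y axis. The 6 called genes are black, the 304 and 474 genes past the unadjusted p are orange and blue, and the points that fan out at the right are genes listed at 0 FPKM in some libraries and at high values in others.

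The counts depended on WT replicate 1. Without both WT replicate 1 libraries, mock and *Pst hrcC-*, 1029 genes were called higher (6.19%) and 642 lower (3.86%). WT replicate 1 lay nearer to the *linc1-1* mean than to the mean of the other WT libraries in 943 of the 1029 genes (91.6%) and in 465 of the 642 (72.4%), against 66.3% of all tested genes. Of all tested genes, 52 were listed at 0 FPKM in at least 1 mock library and above 1000 FPKM in another, which is why genes at 0 are given here library by library.

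The highest *linc1-1* transcript among the called genes was AT3G01345, which the annotation names only as an uncharacterized protein. It was listed at 144.8, 148.6 and 179.7 FPKM in *linc1-1* and at 0.157, 0.848 and 0.194 FPKM in WT. Every *linc1-1* library was thus at least 171-fold above the highest WT library. On the log2(FPKM + 1) scale the difference was 6.85 (SE 0.20, adjusted p = 2.01e-08 from limma). The gene lies on the plus strand of chromosome 3 from 129138 to 130749, on another chromosome than *LINC1*. The genes on either side overlapped between the lines. AT3G01340 was listed at 30.5 to 38.6 FPKM in *linc1-1* and at 26.0 to 43.7 FPKM in WT, and AT3G01350, below the minimum level, at 0.422 to 0.606 FPKM and 0.333 to 0.541 FPKM. AT3G01330, the next gene before them and also below the minimum level, was at 1.08, 1.09 and 0.957 FPKM in *linc1-1* and 0.893, 0.528 and 0.525 FPKM in WT, above WT in every library. The interval between AT3G01345 and the gene before it is shown whole because it lies before the called gene with the largest difference. It covers chr3:128995-129137 (TAIR10.1, plus strand) and is 143 bases long.
AT3G01345: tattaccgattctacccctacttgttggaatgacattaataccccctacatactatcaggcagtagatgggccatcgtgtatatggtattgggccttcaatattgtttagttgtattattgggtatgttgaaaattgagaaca
It holds 0 copies of ACGTG, the core of the abscisic acid response element, on either strand.

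*HEI10* (AT1G53490) encodes a RING finger protein that marks the sites of class I crossovers in meiosis. It was listed at 10.5, 11.4 and 9.81 FPKM in *linc1-1* seedlings, against 0.335, 0.319 and 0.176 FPKM in WT seedlings. The groups were 29.3-fold apart at their nearest values, with a log2 difference of 3.18 (SE 0.15, adjusted p = 2.4e-06 from limma). *MRD1* (AT1G53480), named for its lower level in the *mto1* mutant, was listed at 1.65, 2.22 and 2.16 FPKM in *linc1-1* and at 0 in all 3 WT libraries (adjusted p = 0.0146 from limma, and 0.124 with only the mock libraries in the fit). *MRD1* spans 19963047 to 19964712 on the minus strand of chromosome 1 and *HEI10* 19963267 to 19966952 on the plus strand. They overlap by 1446 bases, so reads of the pair cannot be told apart unless the strand was used, and the sources here do not state whether it was for these values. The genes on either side overlapped between the lines. AT1G53470, below the minimum level on average, was at 0.397 to 0.878 FPKM in *linc1-1* and 0.573 to 1.57 FPKM in WT, and *MUM4*, an enzyme of mucilage sugar synthesis, at 7.74 to 9.87 FPKM and 5.57 to 14.3 FPKM.

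Most other genes of meiosis were below the minimum level in these seedling libraries. Of 20 genes of meiotic recombination in the list used here, 2 reached the minimum, *HEI10* and *SPO11-2*, which encodes a subunit of the enzyme that makes the meiotic double-strand breaks. *SPO11-2* was listed at 1.19 to 1.87 FPKM in *linc1-1* and at 0.638 to 1.37 FPKM in WT, and the groups overlapped. *MSH4*, *MSH5* and *ZIP4*, which act with *HEI10* in class I crossovers, stayed at or below 0.408 FPKM in *linc1-1* and 0.245 FPKM in WT.

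Besides *LINC1*, with a log2 difference of −2.94 (SE 0.20, adjusted p = 8.16e-05 from limma), 2 genes were called lower. AT1G02660, annotated as an alpha/beta-hydrolase, was listed at 11.9, 8.85 and 6.22 FPKM in *linc1-1* and at 37.0, 28.3 and 29.5 FPKM in WT. The groups did not overlap and were 2.37-fold apart at their nearest values, with a log2 difference of −1.74 (SE 0.23, adjusted p = 0.036 from limma). AT5G45630, annotated as a senescence regulator with a DUF584 domain, was listed at 0.579, 0.597 and 0.148 FPKM in *linc1-1* and at 2.93, 3.97 and 3.43 FPKM in WT. Its nearest values were 4.9-fold apart (log2 difference −1.63, SE 0.22, adjusted p = 0.036 from limma). Both calls were lost with the replicate number as a block (adjusted p = 0.124 for AT1G02660 and 0.129 for AT5G45630 from limma) and with only the mock libraries in the fit (0.292 and 0.223).

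The gene beside AT1G02660, AT1G02650, was also lower in every *linc1-1* library. This tetratricopeptide repeat gene, added after its values were seen, was listed at 1.06, 0.903 and 1.3 FPKM in *linc1-1* and at 2.68, 2.66 and 2.28 FPKM in WT. It did not pass the test (log2 difference −0.77, adjusted p = 0.515 from limma). The neighbors on the other side overlapped between the lines, as did those of AT5G45630.

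**Figure D2:**
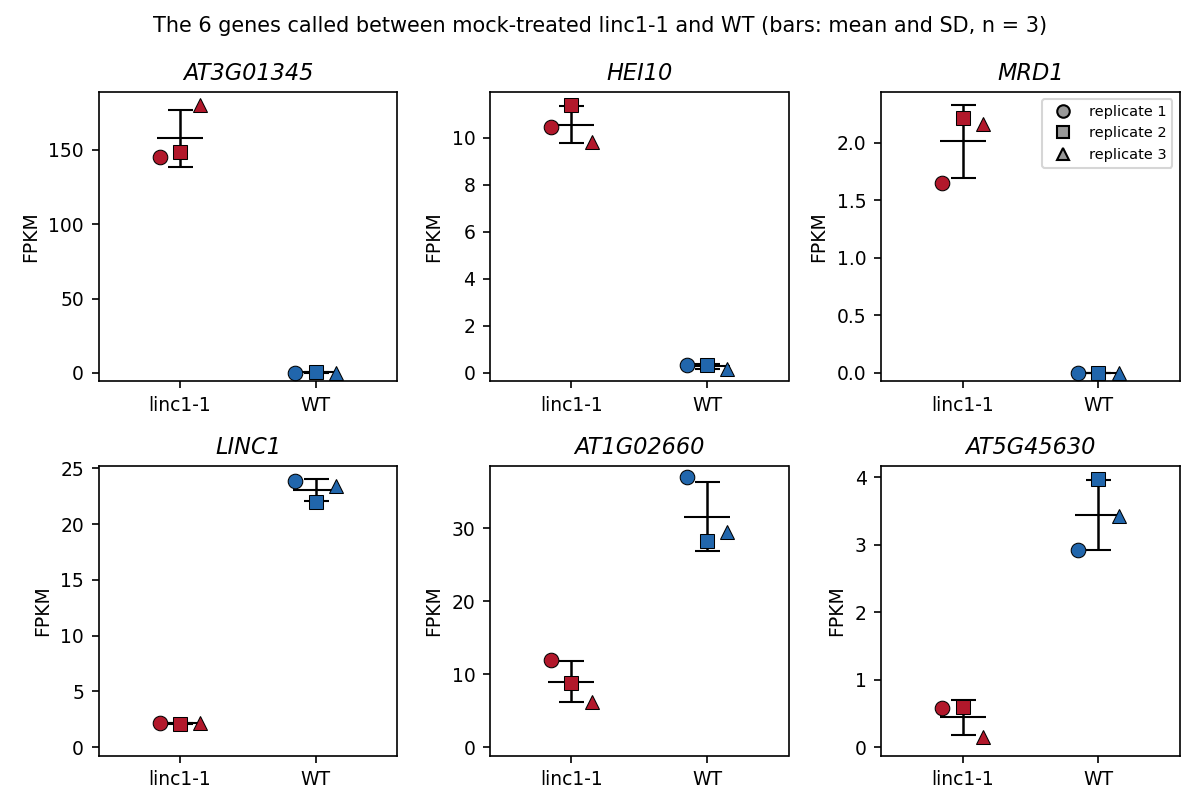
FPKM of the 6 called genes in each mock library, *linc1-1* at the left and WT at the right of each panel, with symbols for replicates and bars for the mean and SD of 3 libraries. In the upper panels every *linc1-1* library lies above every WT library, with *MRD1* at 0 in WT, and in the lower panels every *linc1-1* library lies below.

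The sequence before both of these lower genes held several copies of ACGTG. The 250 bases before the annotated start are shown for AT1G02660 (chr1:575086-575335, minus strand) and AT5G45630 (chr5:18506383-18506632, minus strand). They are also shown for *PHI-1* (chr1:12851733-12851982, plus strand), whose values follow, as 1 example of a lower gene without a match. Capitals mark ACGTG and its reverse complement CACGT, which overlap where they form CACGTG, and all are written 5′ to 3′ in the direction of the gene.
AT1G02660: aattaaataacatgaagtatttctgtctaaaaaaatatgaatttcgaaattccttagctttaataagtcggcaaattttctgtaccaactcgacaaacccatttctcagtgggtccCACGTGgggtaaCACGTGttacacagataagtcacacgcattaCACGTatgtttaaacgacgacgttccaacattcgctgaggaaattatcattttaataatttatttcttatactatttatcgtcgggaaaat
AT5G45630: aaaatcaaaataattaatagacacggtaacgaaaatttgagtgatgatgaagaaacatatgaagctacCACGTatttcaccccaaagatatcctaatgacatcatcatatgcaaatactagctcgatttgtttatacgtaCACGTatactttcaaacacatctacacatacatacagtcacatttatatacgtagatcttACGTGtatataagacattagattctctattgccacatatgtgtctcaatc
PHI-1: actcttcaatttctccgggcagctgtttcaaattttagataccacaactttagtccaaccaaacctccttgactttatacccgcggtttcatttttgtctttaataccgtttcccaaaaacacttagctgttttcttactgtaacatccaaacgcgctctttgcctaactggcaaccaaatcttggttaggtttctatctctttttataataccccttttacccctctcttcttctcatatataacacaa
There were 3 separate matches before AT1G02660, 3 before AT5G45630 and 0 before *PHI-1*. For the shares, the full 250 bases before each start were searched and not cut where a neighboring gene began. Of 16471 tested genes with such a stretch, 23.3% held at least 1 match and 1.17% at least 3. The shares were 31.8% and 3.81% for 472 genes past the unadjusted p that were lower in *linc1-1*, and 19.1% and 0.669% for 299 that were higher. Among the 14 tested touch genes described below, which include *PHI-1*, 4 (28.6%) held at least 1 match and 0 held at least 3. The motif is shown out of 6 that were searched on both strands, after the shares were seen. The element CGCGT stood before 9.96% of the lower and 5.69% of the higher genes, against 7.26% of all. For the W-box core TTGAC the shares were 46.4% and 44.1%, against 44.8%. For the evening element AAATATCT they were 8.05% and 6.02%, against 5.08%. For the element GATAAG they were 16.7% and 11.4%, against 12.7%. For the G-box CACGTG, which holds ACGTG, they were 9.53% and 3.68%, against 7.19%. A match is a string of letters and was not tested as a site.

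At an adjusted p below 0.10 from limma, 9 genes passed the fold, of which *UGT71B1*, *CMPG1* and AT2G23100 were not among the called ones. They are named here after their values were seen, as are *HYR1* and *EXLA1*, which came close behind. *UGT71B1* and *HYR1*, neighboring genes for glucosyltransferases on chromosome 3, had log2 differences of 1.05 and 1.14 (adjusted p = 0.0879 and 0.124 from limma). *UGT71B1* was listed at 12.2, 14.2 and 13.5 FPKM in *linc1-1* and at 6.56, 6.24 and 5.0 FPKM in WT. *HYR1* was listed at 15.2, 16.4 and 17.0 FPKM in *linc1-1* and at 8.88, 4.99 and 6.97 FPKM in WT. Neither overlapped between the lines. *CMPG1*, a U-box gene of the early response to microbial elicitors, was listed at 5.03, 4.11 and 2.4 FPKM in *linc1-1* and at 12.8, 10.6 and 10.9 FPKM in WT (log2 difference −1.40, adjusted p = 0.0904 from limma). AT2G23100 had a log2 difference of −1.38 (adjusted p = 0.0896 from limma). *EXLA1*, an expansin-like gene, was listed at 21.2, 14.8 and 10.2 FPKM in *linc1-1* and at 88.8, 54.1 and 55.0 FPKM in WT (log2 difference −2.05, adjusted p = 0.124 from limma).

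Of genes with a mean of 5 FPKM or more, an unadjusted p below 0.05 and no overlap between the lines, the 8 largest differences per direction were read out. Among the lower ones, after *LINC1*, stood AT5G60240, listed at 0, 0 and 15.3 FPKM in *linc1-1* and at 15.8, 16.4 and 17.7 FPKM in WT, so that *linc1-1* replicate 3 was close to WT. *RAB18*, a dehydrin gene induced by abscisic acid, was listed at 4.08, 2.75 and 1.16 FPKM in *linc1-1* and at 15.8, 29.0 and 15.9 FPKM in WT (log2 difference −2.57, SE 0.44, adjusted p = 0.124 from limma). The glycosyltransferase gene AT3G46700, the methyltransferase gene AT5G37990 and the glycerophosphodiesterase gene *GDPD2* had log2 differences of −2.38, −2.20 and −2.103 (adjusted p = 0.139, 0.124 and 0.443 from limma). *GDPD2* was listed at 34.2, 24.3 and 11.9 FPKM in *linc1-1* and at 37.3, 153 and 154 FPKM in WT, where replicate 1 stood next to *linc1-1*. *PHI-1* and *TCH4*, which complete the set, belong to the touch genes described next.

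Among the higher ones, *GSTF14*, a glutathione transferase gene, was listed at 19.5, 14.2 and 23.9 FPKM in *linc1-1* and at 7.96, 2.31 and 2.29 FPKM in WT (log2 difference 2.103, SE 0.67, adjusted p = 0.428 from limma). *GER3*, a germin gene, was listed at 769.7, 745 and 1138 FPKM in *linc1-1* and at 566, 231 and 260.1 FPKM in WT (log2 difference 1.42, SE 0.36, adjusted p = 0.289 from limma). In both, WT replicate 1 was the WT library nearest to *linc1-1*. The same was so for the auxin-responsive SAUR-like gene AT2G21210, at 36.2, 38.8 and 50.7 FPKM in *linc1-1* and 19.9, 4.45 and 7.86 FPKM in WT. AT1G68238, AT2G42110 and AT5G05250, all of unknown product, had log2 differences of 1.72, 1.64 and 1.45, with adjusted p values of 0.542, 0.443 and 0.411 from limma. WT replicate 1 was the WT library nearest to *linc1-1* in each of them too. In AT2G42110 it was at 6.10 FPKM, against 6.33 FPKM in *linc1-1* replicate 3.

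Genes that touch induces had lower average values in *linc1-1* than in WT, though none passed the test by itself. This list holds calmodulin-like, xyloglucan-modifying and EXORDIUM-family genes and zinc finger and deadenylase genes that bending, rain or handling raise within minutes. Of 16 genes, 14 were tested and all 14 had a negative difference, with a median of −0.86 against 0.0085 for all tested genes. None was called, 8 of 14 were lower at the unadjusted p (2.85% of all tested genes) and 9 of 14 did not overlap (8.83% of all tested genes). This list, like the others here, was chosen with earlier results of these data known. Its counts are therefore a description and no test of the list.

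*TCH4*, a xyloglucan endotransglucosylase gene, was listed at 134, 103 and 39.6 FPKM in *linc1-1* and at 370.02, 444 and 448 FPKM in WT (log2 difference −2.34, SE 0.49, adjusted p = 0.223 from limma). *PHI-1*, a phosphate-induced gene of the EXORDIUM family, was listed at 23.9, 23.7 and 7.36 FPKM in *linc1-1* and at 106, 90.6 and 78.9 FPKM in WT (log2 difference −2.42, SE 0.45, adjusted p = 0.175 from limma). In both, *linc1-1* replicate 3 was the lowest and WT replicate 1 stood with the other WT libraries. *XTR6*, a second gene for a xyloglucan enzyme, was listed at 6.83, 5.4 and 2.07 FPKM in *linc1-1* and at 16.95, 13.7 and 8.48 FPKM in WT. *TCH3*, a calmodulin-like gene, was listed at 74.2, 64.5 and 23.1 FPKM in *linc1-1* and at 104, 128 and 109 FPKM in WT. *EXO* was listed at 59.1, 76.3 and 53.1 FPKM in *linc1-1* and at 136, 142 and 122 FPKM in WT. These 3 genes had log2 differences of −1.34, −1.22 and −1.09, and none passed the adjusted test. The groups overlapped in *EXL2*, *EXL4*, *STZ*, *CZF1* and *CAF1b*.

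In 12 of the 14 genes the lowest of the 6 libraries was *linc1-1* replicate 3. Without that library the median was −0.49, with 12 of 14 negative. Without both WT replicate 1 libraries it was −1.07 and 5 of 14 genes were called lower (3.86% of all tested genes). Handling of the seedlings is not recorded in the labels, and its part in these values was not tested.

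**Figure D3:**
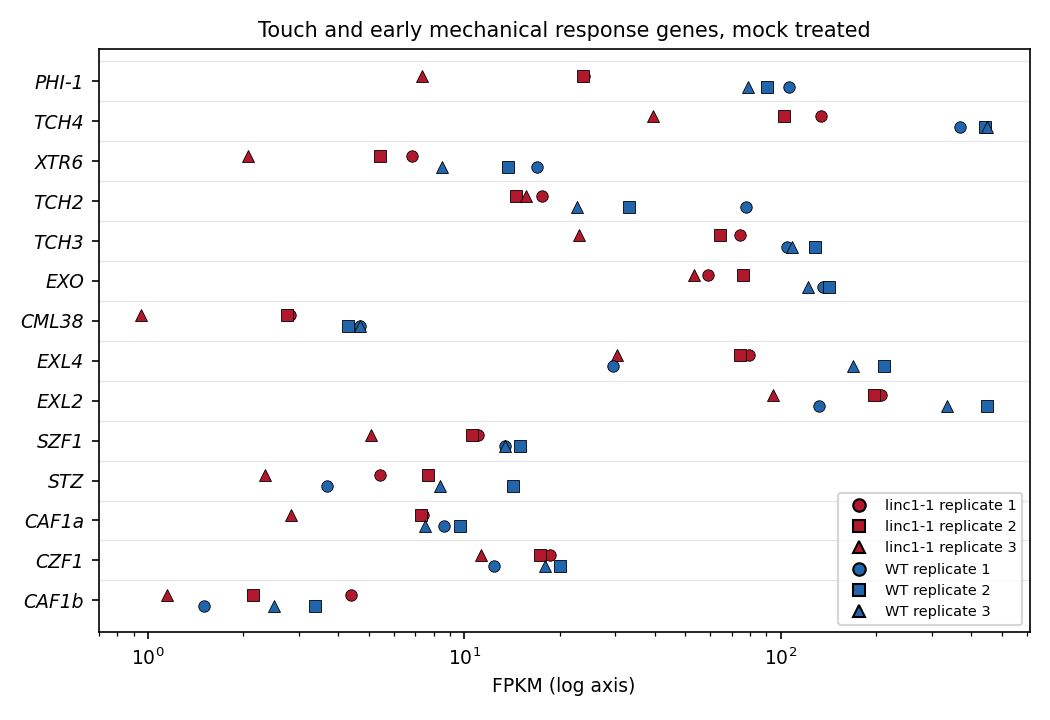
FPKM on a log axis of the 14 tested touch and early mechanical response genes in each mock library, *linc1-1* in red above WT in blue for each gene, with symbols for replicates, ordered by their difference. In *PHI-1*, *TCH4* and 7 other genes all *linc1-1* points lie left of all WT points, and *linc1-1* replicate 3 is the lowest point in 12 genes.

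Genes of the jasmonic acid (JA) pathway leaned lower in *linc1-1*. JA is made from linolenic acid by LOX, AOS and AOC enzymes, acts through COI1, JAZ repressors and MYC factors, and is broken down by CYP94 and JAO oxidases. Of 28 tested genes of 39, 26 had a negative difference, with a median of −0.59, and none was called. At the unadjusted p, 5 of 28 were lower (2.85% of all tested genes) and 0 higher, and 4 of 28 were lower without overlap (8.83% of all tested genes). Without both WT replicate 1 libraries 9 of 28 were called lower (3.86% of all tested genes). *AOC1*, an allene oxide cyclase gene, was listed at 2.43, 2.66 and 0.912 FPKM in *linc1-1* and at 6.85, 7.19 and 6.02 FPKM in WT (log2 difference −1.41, adjusted p = 0.351 from limma). *CYP94B1* was listed at 1.04, 1.68 and 0.601 FPKM in *linc1-1* and at 2.77, 5.81 and 3.77 FPKM in WT (log2 difference −1.27, adjusted p = 0.333 from limma). *JAZ9* was listed at 3.34, 3.12 and 5.16 FPKM in *linc1-1* and at 7.0, 7.74 and 9.76 FPKM in WT (log2 difference −0.92, adjusted p = 0.551 from limma). These 3 genes and *JAZ6* were the members below WT in every library, and *MYC4* was above it in every library, at 7.504 to 11.2 FPKM in *linc1-1* and 7.19 to 7.503 FPKM in WT, which is nearly a tie.

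Single libraries took the extremes in many JA genes, since 15 of 28 were lowest in *linc1-1* replicate 3 and 5 of 28 were highest in WT replicate 1. *AOC2* was listed at 10.4 to 17.2 FPKM in *linc1-1*, against 74.3 FPKM in WT replicate 1 and 15.4 and 16.6 FPKM in the other WT libraries. *LOX2* was listed at 5.48 to 11.05 FPKM in *linc1-1*, against 40.8 FPKM in WT replicate 1 and 4.04 and 4.1 FPKM in the others. The list median of *linc1-1* was −0.08 against WT replicate 1 and −0.54 against WT replicates 2 and 3. In the *Pst hrcC-* libraries it was 0.03, with 15 of 28 positive.

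The lists of other defense pathways had medians nearer to 0. Of 22 tested ethylene genes 17 were negative, with a median of −0.22, 0 lower (2.85% of all tested genes) and 1 higher (1.83%) at the unadjusted p. The median was 0.11 against WT replicate 1 and −0.35 against the others. Without both WT replicate 1 libraries 4 of 22 were called lower (3.86% of all tested genes) and 1 higher (6.19%). The gene higher at the unadjusted p was *ACO1*, an enzyme of ethylene synthesis, at 3.36, 5.2 and 5.31 FPKM in *linc1-1* and 4.18, 1.12 and 1.02 FPKM in WT. Of 21 genes of pattern-triggered immunity 15 were negative, with a median of −0.25, and 0 passed the unadjusted p with the fold. *FLS2*, the flagellin receptor gene, was listed at 4.68, 4.6 and 3.22 FPKM in *linc1-1* and at 5.07, 6.08 and 8.04 FPKM in WT (adjusted p = 0.685 from limma). The kinase gene *MPK3* was listed at 14.1, 16.96 and 14.8 FPKM in *linc1-1* and at 20.17, 18.5 and 18.9 FPKM in WT (adjusted p = 0.686 from limma). Both were lower in every *linc1-1* library, as was the transcription factor gene *WRKY29*. Without *linc1-1* replicate 3 the median of this list was −0.01. Of 15 genes of salicylic acid 9 were negative, with a median of −0.03. This median was −0.32 against WT replicate 1 and 0.11 against WT replicates 2 and 3. At the unadjusted p, 1 of 15 was lower (2.85% of all tested genes). *NIMIN3*, which encodes a partner of the NPR1 regulator, was the member above WT in every library, at 81.5, 64.7 and 57.9 FPKM in *linc1-1* and 32.9, 47.3 and 57.3 FPKM in WT.

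Iron deficiency genes leaned higher in *linc1-1*, with an iron storage gene lower. Of 15 tested genes of 17, 11 had a positive difference, with a median of 0.76. None was called, 5 of 15 were higher at the unadjusted p (1.83% of all tested genes) and 1 was lower (2.85%). *BHLH101*, a transcription factor gene of the iron deficiency response, was listed at 3.37, 1.59 and 1.91 FPKM in *linc1-1* and at 1.43, 0.739 and 0.497 FPKM in WT (log2 difference 0.79, adjusted p = 0.421 from limma). AT1G47400 was listed at 5.1, 3.9 and 14.2 FPKM in *linc1-1* and at 2.55, 0 and 0.71 FPKM in WT (adjusted p = 0.507 from limma). *FER1*, the ferritin gene, was listed at 39.98, 41.2 and 19.1 FPKM in *linc1-1* and at 78.8, 72.1 and 45.3 FPKM in WT (log2 difference −0.99, adjusted p = 0.505 from limma). No library of *linc1-1* overlapped WT in these 3 genes. *IRT1*, the iron transporter gene of the root, split WT itself, at 36.7, 12.9 and 18.4 FPKM in *linc1-1* and 19.5, 0.0538 and 0.0896 FPKM in WT. The list median was 0.08 against WT replicate 1 and 0.96 against WT replicates 2 and 3, and −0.02 over the 8 members that reached a mean of 5 FPKM.

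Of 16 tested cold and abscisic acid genes, 11 were negative, with a median of −0.31 and 3 lower at the unadjusted p (2.85% of all tested genes). The median was −0.92 against WT replicate 1 and −0.17 against the others. Without both WT replicate 1 libraries 5 of 16 were called higher (6.19% of all tested genes) and 2 lower (3.86%). Besides *RAB18*, the genes at the unadjusted p were *COR47*, another dehydrin gene, at 239.6, 268 and 152 FPKM in *linc1-1* and 368, 367 and 286 FPKM in WT, and *ABI2*, a phosphatase gene of abscisic acid signaling, at 0.715, 1.39 and 1.41 FPKM in *linc1-1* and 2.81, 2.31 and 2.1 FPKM in WT. *NCED3*, whose enzyme limits the rate of abscisic acid synthesis, was also below WT in every library, at 0.866 to 0.954 FPKM against 1.27 to 1.91 FPKM. None passed the adjusted test. *COR15A*, *COR15B*, *RD29A* and *KIN1* were highest in WT replicate 1, where *COR15B* was at 81.2 FPKM, against 23.1 to 35.6 FPKM in *linc1-1* and 5.89 and 6.83 FPKM in the other WT libraries.

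The circadian clock list did not move one way. Of 16 tested genes 11 were negative, with a median of −0.22, and 2 of 16 were lower at the unadjusted p (2.85% of all tested genes). The median was 0.24 against WT replicate 1, −0.45 against the others and 0.47 in the *Pst hrcC-* libraries. *PRR7* was listed at 30.4, 21.8 and 19.7 FPKM in *linc1-1* and at 43.5, 32.7 and 39.7 FPKM in WT, and *PRR5* at 9.54, 7.92 and 8.84 FPKM in *linc1-1* and 30.02, 17.99 and 23.4 FPKM in WT. These pseudo-response regulators of the daytime had log2 differences of −0.68 and −1.32 (adjusted p = 0.37 and 0.584 from limma). *ELF4* of the evening complex was above WT in every library, at 127.9, 117 and 99.7 FPKM in *linc1-1* and 84.8, 75.5 and 68.1 FPKM in WT. *TOC1* was at 59.4 to 63.6 FPKM in *linc1-1*, against 32.4 FPKM in WT replicate 1 and 84.9 and 96.6 FPKM in the others, so that the WT libraries lay on either side of *linc1-1*. The hour of harvest is not in the labels, and its part in these values was not tested.

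Lists tied to growth and to glucosinolates (GS) had a difference whose sign depended on which WT library was used. Of 22 tested cell cycle genes 20 were positive, with a median of 0.27, but the median was −0.46 against WT replicate 1 and 0.64 against WT replicates 2 and 3. The cytokinesis syntaxin gene *KN* was listed at 50.1, 43.2 and 58.5 FPKM in *linc1-1*, against 57.3 FPKM in WT replicate 1 and 19.2 and 16.7 FPKM in the others. Of 21 tested aliphatic GS genes 16 were positive, with a median of 0.33, which was −0.77 against WT replicate 1 and 0.90 against the others. Within this list *MYB28*, the main transcription factor gene of aliphatic GS, was the member above WT in every library, at 14.3, 17.8 and 20.5 FPKM in *linc1-1* and 10.1, 6.5 and 7.04 FPKM in WT (log2 difference 1.07, SE 0.26, adjusted p = 0.284 from limma). *MAM1*, its chain elongation enzyme, was below WT in every library, at 3.51, 4.53 and 5.96 FPKM in *linc1-1* and 17.0, 6.69 and 7.2 FPKM in WT (adjusted p = 0.629 from limma). Of 15 genes of indole GS and camalexin 8 were positive, with a median of 0.04, and *GSTF10*, a glutathione transferase gene, was above WT in every library.

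Photosynthesis genes, 29 in all, had a median of 0.18, which was −0.61 against WT replicate 1 and 0.71 against the others. Flavonoid genes showed the widest split, with a median of −0.30 over 7 genes, −1.78 against WT replicate 1 and 0.26 against the others. *CHS*, chalcone synthase of the first step of this pathway, was listed at 10.7, 11.2 and 8.37 FPKM in *linc1-1*, against 90.5 FPKM in WT replicate 1 and 11.7 and 10.8 FPKM in the others. WT replicate 1 was the highest of the 6 libraries in 17 of 21 aliphatic GS genes, 14 of 22 cell cycle genes, 21 of 29 photosynthesis genes and 6 of 7 flavonoid genes. Without both WT replicate 1 libraries 9 cell cycle, 9 aliphatic GS and 7 photosynthesis genes were called higher in *linc1-1* (6.19% of all tested genes), and 0 of each were called lower (3.86% of all tested genes).

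**Figure D4:**
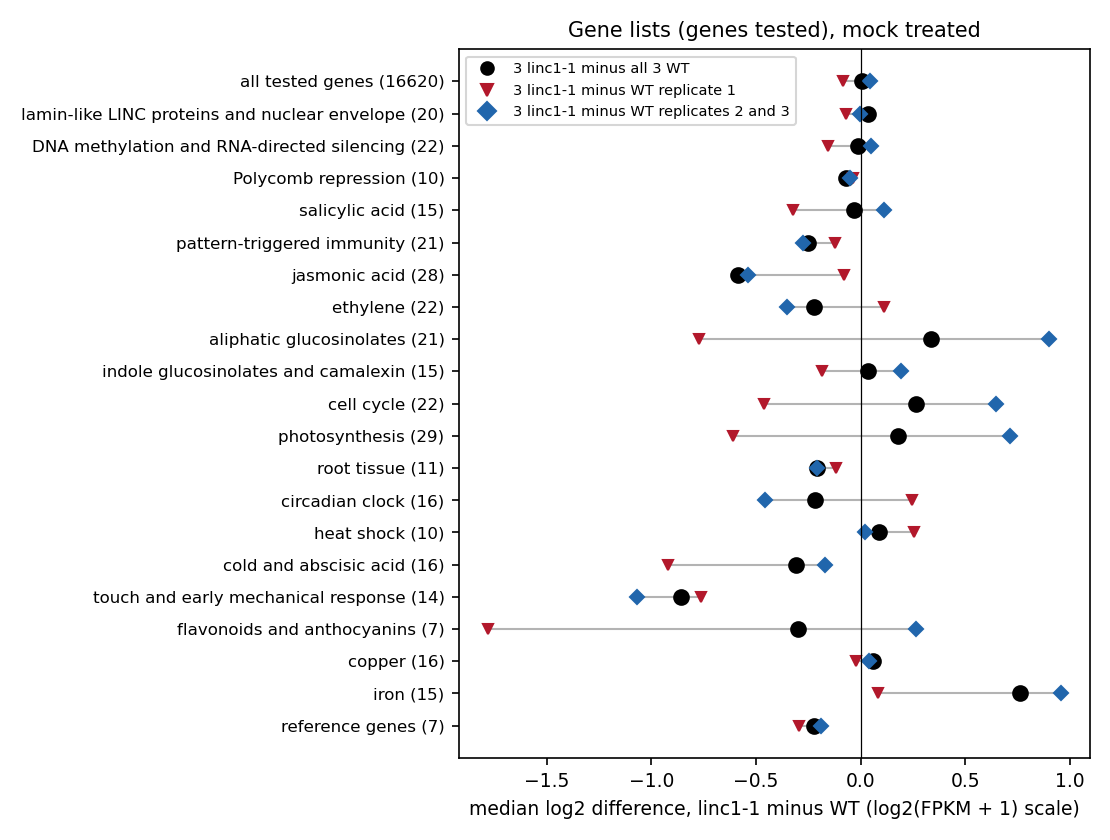
Median log2 difference of *linc1-1* minus WT for all tested genes and for the lists with at least 7 tested genes (their number in brackets), with a black point for all 3 WT libraries, a red triangle for WT replicate 1 alone and a blue diamond for WT replicates 2 and 3. The touch list lies below 0 against either, at −0.76 and −1.07, while the aliphatic GS, cell cycle and photosynthesis lists change sign.

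Among genes of the nuclear envelope and of chromatin, *LINC1* alone was called. Of 20 tested genes of this group, which holds the LINC family and the SUN, WIP and WIT proteins of the bridge across the envelope, 11 were positive, with a median of 0.04. *LINC2* was listed at 6.38 to 7.2 FPKM in *linc1-1* and at 5.43 to 6.45 FPKM in WT, and *LINC3* at 8.72 to 9.02 FPKM and 7.61 to 9.52 FPKM, both overlapping. *LINC4* was listed at 3.53, 4.22 and 3.69 FPKM in *linc1-1* and at 5.22, 5.86 and 6.11 FPKM in WT, below WT in every library (log2 difference −0.48, SE 0.16, adjusted p = 0.463 from limma). *SUN3* and *WIT2* were below WT in every library as well, with log2 differences of −0.45 and −0.44. Of 22 tested genes of DNA methylation and RNA-directed silencing 0 passed the unadjusted p with the fold, with a median of −0.01, and 4 were below WT in every library (8.83% of all tested genes). In the *Pst hrcC-* libraries 9 of 22 were above WT without overlap (15.0% of all tested genes) and 0 below (6.13%). Among the 4 mock ones, the DNA glycosylase gene *DME* was listed at 4.79, 5.32 and 4.92 FPKM in *linc1-1* and at 6.67, 6.7 and 6.33 FPKM in WT, with a log2 difference of −0.33 (adjusted p = 0.736 from limma). Of 10 Polycomb genes 0 passed, with a median of −0.07.

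Genes often used as references did not pass the test. *ACT2* was listed at 222, 213 and 174 FPKM in *linc1-1* and at 143, 233 and 227 FPKM in WT (log2 difference 0.04, adjusted p = 0.983 from limma), a sign that changed with the setting. *UBQ10* was listed at 455, 466 and 294 FPKM in *linc1-1* and at 364, 556 and 489 FPKM in WT (log2 difference −0.22, adjusted p = 0.874 from limma). Both overlapped between the lines. The median of the 7 reference genes was −0.22, with 2 of them, *PP2AA3* and AT2G28390, below WT in every library (8.83% of all tested genes). Lists of heat shock, copper and root genes had medians of 0.09, 0.06 and −0.21, with 0 genes past the unadjusted p and fold in any of them.

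The genes past the unadjusted p were spread over the nuclear genome. By chromosome, 1.62% to 2.16% of tested genes were higher and 2.44% to 3.19% lower. Within 1 Mb of *LINC1* on either side, *LINC1* itself left out, 4 of 272 tested genes (1.47%) were higher and 5 (1.84%) were lower.

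The *Pst hrcC-* libraries gave a second reading of the same lines in other seedlings. This reading is not independent of the mock test, since both use 1 estimate of the spread per gene from all 12 libraries. A small spread in the *Pst hrcC-* libraries thus helped a gene to pass in mock, and it favors passing and not overlapping there. All 6 called genes kept their direction there and did not overlap between the lines, where 15.0% of tested genes were higher and 6.13% lower without overlap. AT3G01345 was listed at 141, 157 and 169 FPKM in *linc1-1* and at 0.317, 0.189 and 0.15 FPKM in WT. *HEI10* was listed at 9.39, 11.8 and 10.6 FPKM in *linc1-1* and at 0.587, 0.308 and 0.179 FPKM in WT. *MRD1* was listed at 1.85, 1.83 and 3.4 FPKM in *linc1-1* and again at 0 in the 3 WT libraries. These levels lay close to those of the mock libraries. AT1G02660 was at 5.32, 5.42 and 5.72 FPKM in *linc1-1* and 17.3, 26.6 and 23.8 FPKM in WT, and AT5G45630 at 0.0614, 0.462 and 0 FPKM in *linc1-1* and 3.2, 2.6 and 4.54 FPKM in WT. All 6 passed the adjusted test there as well, with limma log2 differences of 7.01 for AT3G01345, 3.10 for *HEI10*, −1.84 for AT1G02660 and −1.92 for AT5G45630, and an adjusted p of 0.00667 for *MRD1*. *LINC1* was at 2.12, 3.76 and 2.41 FPKM in *linc1-1* and 17.2, 23.2 and 28.3 FPKM in WT there, a log2 difference of −2.67. Of the 16 largest mock differences 13 missed the test in mock, and 9 of these missed it after *Pst hrcC-* as well. The others, *PHI-1*, *TCH4*, *GER3* and AT5G05250, passed it in the *Pst hrcC-* libraries, with log2 differences of −3.40, −2.74, 1.98 and 2.65 (adjusted p = 0.0129, 0.0455, 0.0454 and 0.0361 from limma). *CMPG1* and *EXLA1* did so as well, at −1.81 and −2.12 (adjusted p = 0.0105 and 0.0361 from limma), and *UGT71B1* and *HYR1* did not, at 0.72 and 0.87 (adjusted p = 0.0833 and 0.0905 from limma). Those that missed it again had adjusted p values of 0.0637 for *RAB18* to 0.656 for AT5G60240 from limma.

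Of the 304 genes higher at the unadjusted p in mock, 296 (97.4%) had a positive difference after *Pst hrcC-* and 190 (62.5%) did not overlap there in the same direction. Of the 474 lower genes, 443 (93.5%) had a negative difference and 233 (49.2%) did not overlap. Both sets were chosen with a spread that drew on these libraries too, which favors the shares without overlap. Over all tested genes 11006 were positive and 5584 negative in those libraries, with a median of 0.14. The touch genes had a median of −1.06 there, with 14 of 14 negative and 9 lower without overlap (6.13% of all tested genes), and the iron list one of 0.43. The aliphatic GS list had 21 of 21 positive with a median of 1.24, and the cell cycle list 22 of 22 with 0.79. A test of the difference between the treatments gave 0 genes at an adjusted p below 0.05 by limma and 366 at an unadjusted p below 0.05. WT replicate 1 is in both sets of libraries under the same number, and whether its seedlings shared an origin is not in the labels.

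**Figure D5:**
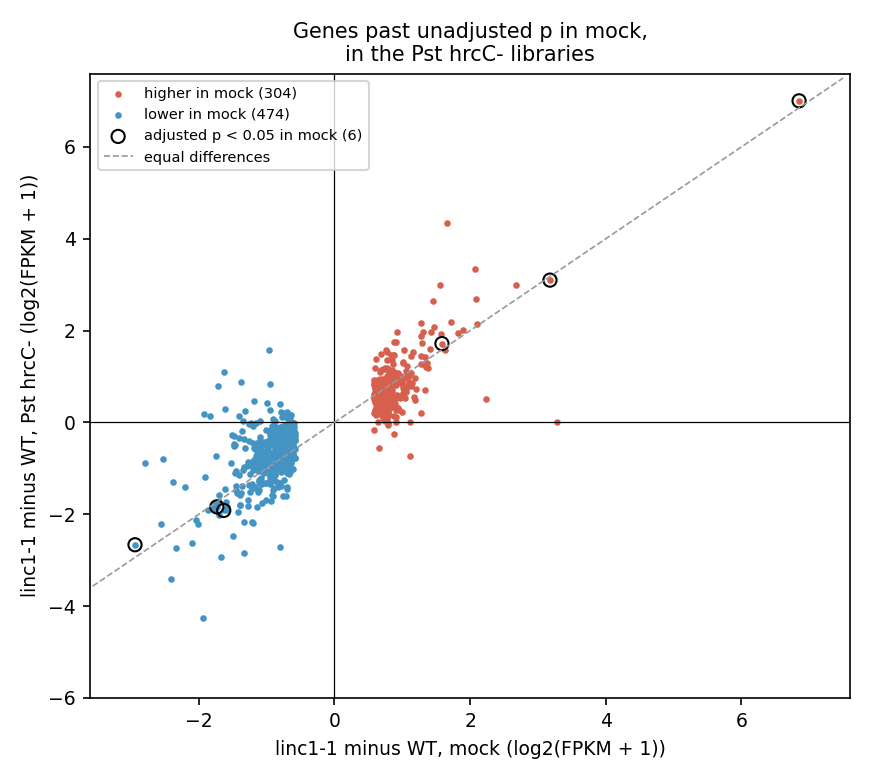
Log2 difference of *linc1-1* minus WT in the mock libraries (x axis) and in the *Pst hrcC-* libraries (y axis) for the 778 genes past the unadjusted p and fold in mock, red where higher and blue where lower in *linc1-1*, with circles around the 6 called genes and a dashed line of equal differences. Most red points lie above 0 and most blue points below 0 on the y axis, and 2 genes listed at 0 in some libraries lie beyond the axes.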

How the data were processed

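Total RNA of whole seedlings was converted to mRNA libraries with a stranded kit and sequenced in pairs on a HiSeq4000. Reads were trimmed and mapped by TopHat2 to the TAIR10 build (the submitters' processing notes give version 2.1.1), and the authors deposited FPKM from Cufflinks (version 2.2.1 there) for each library, in 1 table per genotype, without counts, errors or p-values. Of 27371 identifiers, 26703 (97.6%) were found in the RefSeq annotation of TAIR10.1, which gave names, coordinates and upstream sequence. FPKM was not scaled further. Genes with an average of 1 FPKM or more in the mock libraries were tested on log2(FPKM + 1) with limma (version 3.58.1, R 4.3.3), with a variance trend and the 4 groups of all 12 libraries in a single model, which share an estimate of the spread, and the contrast was mock *linc1-1* minus mock WT. A pseudocount understates the change of low genes.

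Low values did not give whole reads, since 30.5% to 41.1% of them lay within 0.15 of a whole multiple of a library's floor, where 30% would by chance, so no count test was run and depth stays unknown. The floors of the mock libraries differed by up to 4.16-fold. A value of 0 may be a failed estimate. The script was tested on simulated data.

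The 22 gene lists hold 460 genes, 341 of them tested. The comparison, its members and these lists were chosen with earlier results of these data known, so list counts are descriptions without a set test. Genes named are *LINC1*, *ACT2* and *UBQ10*, all called genes, the 8 largest differences per direction as described, and per list up to 3 members without overlap or, failing that, the member with the largest difference. Other members are named to describe a list, after their values were seen. Replicate numbers were not treated as pairs. Alternatives were the replicate block, only mock libraries in the fit, size factors, a pseudocount of 0.1, no minimum or one of 5 FPKM, library weights, and fits without single libraries or both WT replicate 1 libraries.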

Additional observations from a re-analysis of the deposited data

How the results depend on the processing

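Leaving out single mock libraries gave 2 to 13 genes called higher and 1 to 8 called lower, and 184 to 1207 and 372 to 752 at the unadjusted p. The highest of each came without WT replicate 1, where the calls were 13 and 8. Without both WT replicate 1 libraries 1029 and 642 genes were called, with 1694 and 1081 at the unadjusted p. The same with only mock libraries in the fit, chosen after seeing the data, gave 677 and 371, with 1751 and 1041. Library weights gave 1127 and 744, with 1538 and 1008. All 3 of these settings kept the 6 called genes. Only mock libraries in the fit gave 1 gene lower, as did no minimum FPKM. A minimum of 5 FPKM, which tested 8742 genes, gave 181 and 297 at the unadjusted p. *LINC1*, *HEI10* and AT3G01345 were called in 15 of 15 alternatives, AT1G02660 in 7 of 15, *MRD1* in 9 of 14 and AT5G45630 in 5 of 14, with adjusted p of up to 0.292, 0.131 and 0.251. The sign of *ACT2* reversed, to −0.12 with library weights, −0.03 without *linc1-1* mock replicate 1, −0.19 without WT mock replicate 1, and −0.19 without both WT replicate 1 libraries in either fit; without single libraries it ranged from −0.19 to 0.16. Deviations of libraries with the same number correlated at −0.176, 0.368 and 0.0304, and those with different numbers at −0.415 to 0.284. The main fit did not use the numbers as pairs. Deviations from means of 3 libraries cannot decide whether libraries of a number share something, because each library enters its own mean. Replicate 3 of both lines stood together on the third principal component, and what its libraries share was not tested. With the replicate block 3 genes were called higher and 2 lower, and 4 of the 6 called genes were kept, without AT1G02660 and AT5G45630 (adjusted p = 0.124 and 0.129 from limma). Of the list medians under these settings, 24 moved by more than 1 SD between replicates and 276 did not. This SD includes WT replicate 1, which widens it where that library stands apart. The counts therefore do not show that a list was stable without it. Without WT mock replicate 1 the flavonoid median went from −0.30 to 0.26, the photosynthesis median from 0.18 to 0.71 and the aliphatic GS median from 0.33 to 0.90. The cause of these shifts was not tested. Depth is unknown, so the counting error of low values, as for *MRD1* and AT5G45630, is unknown too.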
